A study of Canis lupus familiaris with 6 samples.

Results

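The 10 genes described here encode proteins of focal adhesions, and were taken by gene symbol from a table of 35993 genes measured by RNA-Seq in CPEK cells, a canine epidermal keratinocyte line. They are the kindlins FERMT1 and FERMT2, talin (TLN1), vinculin (VCL), the integrin-linked kinase ILK, focal adhesion kinase (PTK2), paxillin (PXN), zyxin (ZYX), filamin A (FLNA) and nexilin (NEXN). Each symbol was found once, and all 10 genes passed the filter on low counts that left 14708 genes for testing. FERMT2 and NEXN are among the genes that the study picked from these same libraries to display. Their direction in these libraries is therefore not independent evidence. The study then measured FERMT2 by qRT-PCR and reported it as significantly higher after plasma treatment.

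The cells of both groups carry the wild-type genotype by their labels. The dCAMP group (3 libraries) was exposed directly to cold atmospheric microwave plasma for 30 s. The gas group (3 libraries) received the gas without plasma, also for 30 s by the study's methods. In both, the medium was renewed after 15 min and RNA was collected 24 h later. All libraries come from 1 cell line, and nothing in the labels says whether the replicates were separate cultures, so that the p-values measure only the spread between these libraries, which may be technical.

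Focal adhesions are assemblies through which integrins join the extracellular matrix to the actin cytoskeleton. Talin and the kindlins bind the tails of integrin beta subunits and switch integrins to their active state. Vinculin then reinforces the bond of talin with actin, ILK forms a complex with PINCH and parvin proteins, and focal adhesion kinase and paxillin relay signals. Zyxin, filamin A and nexilin bind actin filaments or their regulators. In epidermis, kindlin-1 anchors basal keratinocytes, and loss of FERMT1 causes the blistering disease Kindler syndrome.

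The gas libraries held 45167120, 53166657 and 54082634 counts, and the dCAMP libraries 46479197, 43084921 and 44692385 counts. The gas libraries stood apart from one another. On the first principal component, which took 71.2% of the variance, gas 1, 2 and 3 lay at -94.1, -23.0 and 21.7, and dCAMP 1, 2 and 3 at 28.6, 33.2 and 33.6. Mitochondrial genes held 0.509%, 1.42% and 2.35% of the counts of gas 1, 2 and 3, and 2.19%, 2.23% and 2.22% in dCAMP 1, 2 and 3. Gas 3 was thus nearer to the dCAMP libraries than to gas 1 on both measures. The 10 genes are also described below without gas 1 or gas 3, and the part of this spread in the results was not tested.

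The markers of the labelled cell type were present. All 11 keratinocyte markers (KRT5, KRT14, KRT15, KRT17, TP63, SFN, PERP, DSP, DSG3, ITGA6 and COL17A1) had over 3 counts in every library, with KRT5 the most abundant at 8483 to 11195 FPKM (fragments scaled to transcript length and mapped reads). Their summed level was 28288, 26141 and 22283 FPKM with gas and 22349, 22359 and 21111 FPKM with dCAMP. Of the fibroblast markers, 4 of 10 had over 3 counts in every library, PDGFRB, LUM, DCN and FAP had no count, and the most abundant was COL3A1 at 0.556 to 0.701 FPKM. The summed fibroblast level was 1.56, 1.48 and 1.47 FPKM with gas and 1.55, 1.35 and 1.53 FPKM with dCAMP. Of the muscle markers, 2 of 8 exceeded 3 counts in every library, LMOD1, ACTC1 and MYOD1 had no count, and SMTN was the most abundant at 8.09 to 12.04 FPKM. The summed muscle level was 13.8, 11.9 and 10.7 FPKM with gas and 9.64, 9.12 and 9.20 FPKM with dCAMP, so that it lay below gas in all dCAMP libraries. Endothelial (led by KDR), leukocyte (led by ITGAM) and melanocyte (led by SOX10) markers summed to at most 1.64 FPKM in any library, and PECAM1, EMCN, PTPRC, CD3E, LCP1, TYROBP, TYR, DCT and TYRP1 had no count. The endothelial sum was 0.884, 1.084 and 0.899 FPKM with gas and 1.44, 1.23 and 1.30 FPKM with dCAMP. The melanocyte sum overlapped between the groups, at 0.934, 0.638 and 0.198 FPKM with gas and 0.243, 0.689 and 0.904 FPKM with dCAMP. Of the 3 melanocyte markers tested, 2 had lower means with dCAMP and MLANA a higher one, at 4, 0 and 0 counts with gas and 13, 16 and 11 with dCAMP. The part of these scarce transcripts in the results was not tested.

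The 10 genes fell into an abundant set and a scarce pair, on the per-length FPKM scale that allows levels to be compared between genes. FLNA was the highest, at 114, 101 and 86.9 FPKM with gas and 77.9, 75.6 and 73.0 FPKM with dCAMP, and its range did not overlap that of any other of the 10. PTK2, FERMT1, PXN, ILK, TLN1, ZYX and VCL followed in this order of their means, from 38.6 FPKM for PTK2 to 19.0 FPKM for VCL over the 6 libraries. The ranges of each of these genes and the next in order overlapped, although PXN was above ILK, ILK above TLN1 and ZYX above VCL in all 6 libraries. FERMT2 (mean 0.619 FPKM) and NEXN (mean 0.260 FPKM) lay far below, and FERMT2 was above NEXN in all 6 libraries while their ranges overlapped. Among the 14708 genes tested, FLNA stood at the 94.1st percentile of mean FPKM, FERMT1 at the 85.3rd, FERMT2 at the 18.05th and NEXN at the 10.2nd.

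**Figure D1:**
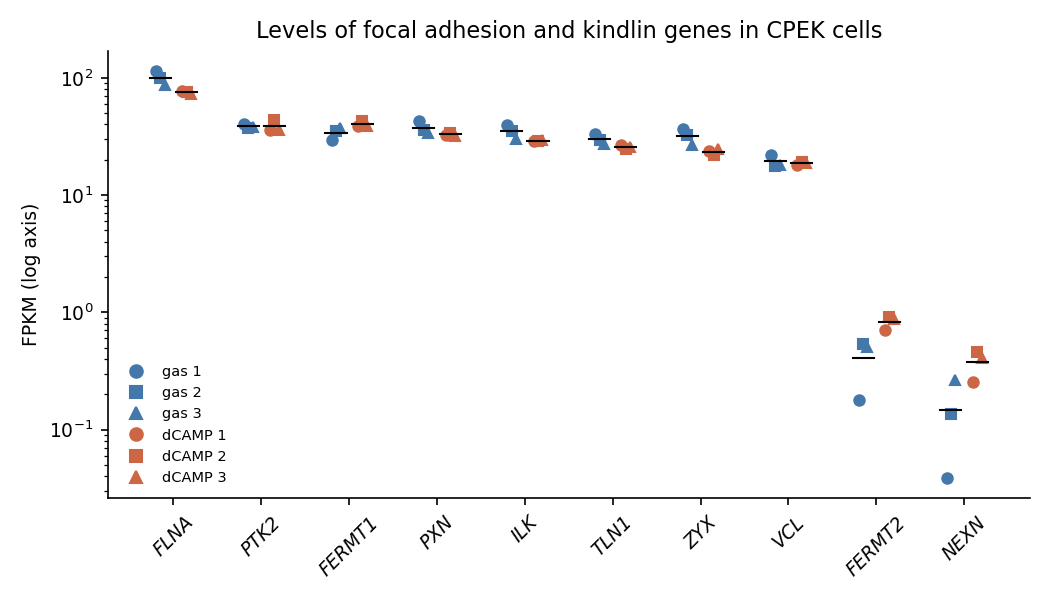
FPKM (log axis) of the 10 genes in each of the 3 gas (blue) and 3 dCAMP (orange) libraries, with black lines at the group means. FLNA lies above all other genes, 7 genes lie between 17.8 and 43.5 FPKM, and FERMT2 and NEXN lie below 0.906 FPKM.

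Relative to the gas control, the kindlins and NEXN had positive log2 fold changes in dCAMP-treated cells (3 of 10, background 52.4%), and the other 7 genes had negative ones (background 47.6%). None of the 10 genes passed an adjusted p under 0.05 in the quasi-likelihood test of edgeR (adjusted by Benjamini-Hochberg, background 0%: 0 of 14708 genes), the smallest adjusted p being 0.221 for ZYX and FLNA. DESeq2 called 0 of the 9 genes to which it gave an adjusted p (NEXN received none), against 301 of 20284 genes (1.48%), while limma's voom with sample quality weights called 7 of the 10 and 60.8% of all genes. At an unadjusted p under 0.05, 4 of the 10 genes were called by edgeR against 20.7% of all genes tested. FERMT2 was the single gene called higher (background 6.81%), and TLN1, ZYX and FLNA were called lower (background 13.9%). With 1 library left out this number was 8 without gas 3 (background 49.2%), 3 without gas 1 (20.6%) or gas 2 (8.25%), 2 without dCAMP 1 (8.23%) or dCAMP 3 (6.86%), and 1 without dCAMP 2 (9.61%). The study's rule, a change of at least 2-fold together with p under 0.05 before adjustment, was met by none of the 10 in edgeR (background 1.09%), whereas with DESeq2 on all genes with a count 1 of the 10 met it (background 1.82%), namely FERMT2. With DESeq2 on the genes counted in every library, 2 of the 10 met it (background 2.14%), FERMT2 and NEXN. The median log2 fold change of the 10 genes was -0.11, and that of all genes tested was 0.03. The former was -0.065 without gas 1, -0.18 without gas 2 and -0.20 without gas 3.

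CPM values, the counts scaled to the TMM-normalized library sizes, are used from here on to set each gene's libraries side by side. The CPM of dCAMP and gas libraries did not overlap for 7 of the 10 genes, against 39.9% of all genes tested. FERMT1 and FERMT2 lay above gas in all dCAMP libraries (background 19%), and TLN1, PXN, ZYX, ILK and FLNA lay below (background 20.9%). The groups overlapped for VCL, PTK2 and NEXN. Since these are bulk libraries, fewer cells that express a gene and less of its RNA per cell cannot be told apart.

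FERMT1 encodes kindlin-1, the kindlin of epithelial cells (gene ID 485775; CanFam3.1 chromosome 24, 15748632 to 15785025). It stood at 144, 179 and 190.5 CPM in gas 1, 2 and 3 and at 197, 214 and 194 CPM in dCAMP 1, 2 and 3. The groups did not overlap, but gas 3 lay just below the lowest dCAMP library and gas 1 lay well below the rest. Group means were 171 ± 24.3 CPM with gas and 202 ± 10.5 CPM with dCAMP (SD, n = 3), a log2 fold change of 0.24 (standard error 0.12) with an adjusted p of 0.281. This value was 0.11 if gas 1 was left out, 0.28 if gas 3 was, and 0.071 after correction for gene length. The longer of its 2 transcripts (4429 bases) held 62.9% to 81.5% of the gene's counts.

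FERMT2 encodes kindlin-2, the kindlin of most other tissues (gene ID 490693; CanFam3.1 chromosome 8, 29083538 to 29135915). Its counts were few, at 29, 100 and 95 with gas and 116, 136 and 140 with dCAMP, all from 1 transcript. On the CPM scale these were 0.627, 1.90 and 1.79 with gas, and 2.50, 3.17 and 3.098 with dCAMP. All dCAMP libraries lay above all gas libraries, and gas 1 lay far below the other gas libraries. The mean was 1.44 ± 0.706 CPM with gas and 2.92 ± 0.367 CPM with dCAMP, with an unadjusted p of 0.0412 and an adjusted p of 0.237 in edgeR's test. The fitted fold of 1.99 was just under the 2-fold limit, a log2 fold change of 0.996 that was 0.63 without gas 1 and 1.22 without gas 2. Over the alternatives FERMT2 ranged from 0.39 with log2(FPKM + 1) to 1.11 with a block for the replicate number. Its unadjusted p in edgeR's test was 0.0111, 0.0339 and 0.0437 without gas 1, 2 and 3. It was over 0.05 when a dCAMP library was left out, at 0.0597, 0.0981 and 0.0941 without dCAMP 1, 2 and 3. FERMT2 met the 2-fold rule without gas 2 (background 0.902%) and without gas 3 (10.2%). It also met that rule with the block for the replicate number, alone (2.96%) or with the length correction (3.23%). LOC106559159, whose locus overlaps that of FERMT2, had at most 10 counts in any library.

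FERMT1 and FERMT2 were then compared within libraries. The FERMT1 level was 29.4, 35.5 and 37.5 FPKM with gas and 38.9, 42.9 and 38.8 FPKM with dCAMP. The FERMT2 level in the same libraries was 0.178, 0.537 and 0.502 FPKM, and 0.707, 0.906 and 0.883 FPKM. FERMT1 was thus 165, 66.1 and 74.6 times as abundant as FERMT2 with gas, and 55.1, 47.4 and 44.0 times with dCAMP. Over the 6 libraries the log2 of this ratio was 6.07 ± 0.70 (exact two-sided sign-flip permutation test, p = 0.03125, the smallest that 6 libraries allow). FERMT3, the kindlin of blood cells, had no count in any library, which allows up to 3 counts in each.

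The ratio was lower in all dCAMP libraries than in any gas library. Its log2 mean was 6.55 ± 0.72 with gas and 5.60 ± 0.17 with dCAMP (SD, n = 3), a difference of -0.94 (exact two-sided permutation test, p = 0.1, the smallest that 3 against 3 libraries allow). Without gas 1 the difference was -0.53, and with 1 FPKM added to both genes it was -0.15. FERMT2 made up 1.14% ± 0.472 of the summed kindlin FPKM with gas and 2.02% ± 0.223 with dCAMP, so that kindlin-1 held at least 97.8% in each library.

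**Figure D2:**
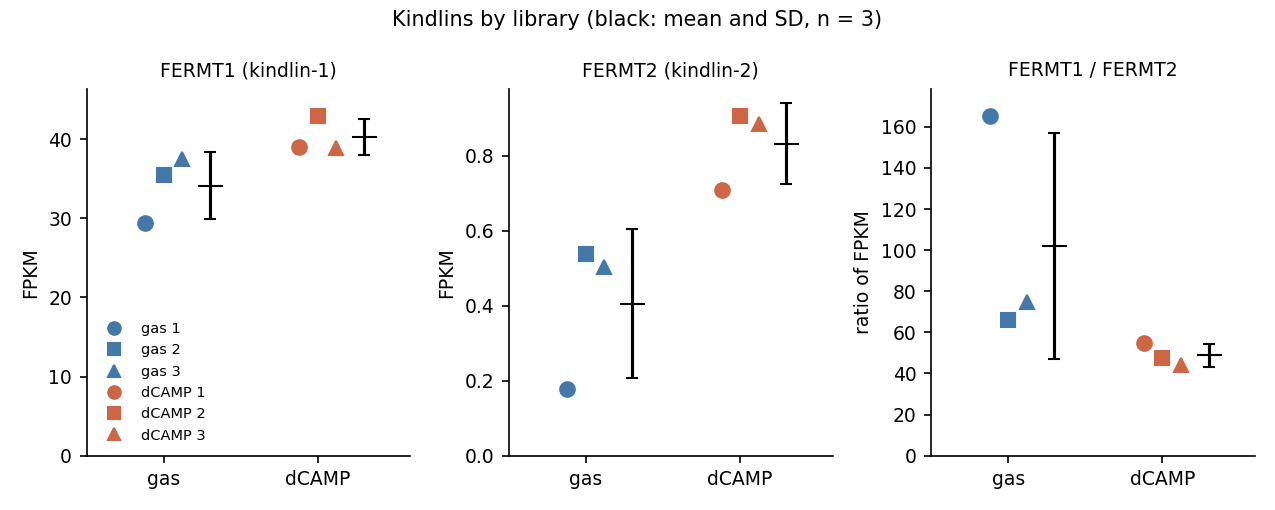
FPKM of FERMT1 (left) and FERMT2 (middle) and their ratio (right) in each gas (blue) and dCAMP (orange) library, with the mean and SD of each group in black (n = 3). Both kindlins are higher in all dCAMP libraries, and the ratio runs from 66.1 to 165 with gas and from 44.0 to 55.1 with dCAMP, gas 1 being far from the rest.

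The genes whose centred log2 CPM ran closest to each kindlin over the 6 libraries were looked up among 12411 genes with a mean of at least 1 CPM. For FERMT1 these were KCTD20, PRKAG2 and GTPBP8, with root mean square differences of 0.027, 0.030 and 0.031 on the log2 scale. For FERMT2 they were LOC111091180, LOC102154385 and FILIP1L, with differences of 0.086, 0.094 and 0.095. FILIP1L stood at 31.8, 58.5 and 60.2 CPM with gas and at 87.7, 92.2 and 91.4 CPM with dCAMP, the same order of groups as FERMT2 at a far higher level.

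Talin-1, encoded by TLN1, binds integrin tails and actin at once (gene ID 100856393; CanFam3.1 chromosome 11, 52227286 to 52260112). TLN1 stood at 312, 281 and 266 CPM with gas and at 257, 236 and 244 CPM with dCAMP. All dCAMP libraries lay below gas, and gas 3 was the closest to them. The log2 fold change was -0.22 (standard error 0.09), with an unadjusted p of 0.0474 and an adjusted p of 0.240 in edgeR's test. It was -0.17 without gas 1 and -0.32 without gas 3, and -0.51 after correction for gene length. The unadjusted p was under 0.05 in only 1 of the 6 fits with a library left out, the one without gas 3 (0.0102). TLN1 held 86.7% ± 0.517 of the summed talin FPKM with gas and 84.3% ± 0.698 with dCAMP, with no overlap of the groups, the rest being TLN2.

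VCL encodes vinculin, which binds talin and actin under load (gene ID 479252; CanFam3.1 chromosome 4, 24404279 to 24518977). It stood at 89.1, 73.7 and 76.05 CPM with gas and at 75.3, 79.0 and 77.2 CPM with dCAMP. The dCAMP libraries lay within the range of the gas libraries, of which gas 1 was the highest. Its log2 fold change was -0.04 (standard error 0.10) with an adjusted p of 0.777, and turned to 0.025 without gas 1 and to 0.056 with voom, while correction for gene length gave -0.19. Vinculin transcripts thus had no stable direction between fits.

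ILK encodes the integrin-linked kinase, a pseudokinase that works as a scaffold (gene ID 476836; CanFam3.1 chromosome 21, 29911326 to 29917972). Its libraries stood at 78.1, 71.8 and 61.2 CPM with gas and at 58.4, 57.6 and 59.4 CPM with dCAMP. The groups did not overlap, with gas 3 just above the dCAMP libraries. Its log2 fold change was -0.27 (standard error 0.11) with an unadjusted p of 0.0531 and an adjusted p of 0.243, and was -0.21 without gas 1 and -0.40 without gas 3. The locus overlaps RRP8 (1696, 1692 and 1481 counts with gas, and 927, 961 and 831 with dCAMP) and TAF10 (4070, 4109 and 3470 counts with gas, and 3041, 2685 and 3036 with dCAMP). These are counts not scaled to library totals, and how reads on overlapping genes were counted is not given in the sources used here, so the value for ILK is uncertain.

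PTK2 encodes focal adhesion kinase, which is activated when integrins cluster (gene ID 475108; CanFam3.1 chromosome 13, 35302439 to 35541336). Its libraries stood at 182, 177 and 179 CPM with gas and at 171, 187 and 169 CPM with dCAMP. The groups overlapped, with the gas libraries inside the range of the dCAMP libraries. The log2 fold change was -0.03 (standard error 0.08) with an adjusted p of 0.785, and was -0.20 after correction for gene length. Of the 22 transcripts listed for PTK2, 8 were counted in every library, and the leading 4689-base transcript held 29.1%, 30.0% and 27.4% with gas and 29.8%, 14.1% and 21.7% with dCAMP.

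PXN encodes paxillin, an adaptor that focal adhesion kinase phosphorylates (gene ID 486299; CanFam3.1 chromosome 26, 16157231 to 16224028). It stood at 169, 143 and 139 CPM with gas and at 134, 134 and 134 CPM with dCAMP. The dCAMP libraries were nearly equal and lay below all gas libraries in CPM, although on the FPKM scale gas 3 (33.5) was below dCAMP 2 (33.8). For paxillin the log2 fold change was -0.17 (standard error 0.10) with an adjusted p of 0.320, and was -0.09 without gas 1, -0.27 without gas 3 and -0.30 after correction for gene length. The 3776-base transcript of PXN held 60.1%, 57.6% and 70.1% of its counts with gas, and 42.2%, 56.1% and 49.7% with dCAMP. A 3677-base transcript had 249, 173 and 0 counts with gas and 2093, 0 and 2434 with dCAMP, so that 1 library of each group had none. How surely StringTie divided the reads between such transcripts cannot be judged from these values, and no test was made.

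Zyxin, encoded by ZYX, is recruited to adhesions under tension and helps to repair actin stress fibers (gene ID 482736; CanFam3.1 chromosome 16, 6304163 to 6313923). ZYX stood at 85.3, 77.4 and 64.6 CPM with gas and at 56.8, 51.8 and 58.8 CPM with dCAMP. All dCAMP libraries lay below all gas libraries, with gas 3 again the nearest. The mean was 75.8 ± 10.4 CPM with gas and 55.8 ± 3.60 CPM with dCAMP, a log2 fold change of -0.44 (standard error 0.13) with an unadjusted p of 0.0125 and an adjusted p of 0.221. It ranged from -0.59 (without gas 3) to -0.37 (without gas 1) when 1 library was left out, and the unadjusted p was under 0.05 in 5 of 6 such fits (0.0538 without dCAMP 2). Its relative TRIP6 was the more abundant of the zyxin family, with 56.2% ± 1.06 of the family's FPKM with gas and 57.1% ± 1.81 with dCAMP, and ZYX held 41.8% ± 1.33 and 40.4% ± 1.86.

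FLNA, on the X chromosome, encodes filamin A, which cross-links actin filaments and binds integrin tails (gene ID 481084; CanFam3.1 chromosome X, 122058303 to 122083467). Its libraries stood at 1078, 977 and 851 CPM with gas and at 759, 727 and 705 CPM with dCAMP. The groups did not overlap, and the gap between gas 3 and the highest dCAMP library was smaller than that between gas 2 and gas 3. The mean was 969 ± 114 CPM with gas and 730.4 ± 27.0 CPM with dCAMP, a log2 fold change of -0.41 (standard error 0.10) with an unadjusted p of 0.00628, the smallest of the 10 genes, and an adjusted p of 0.221. The unadjusted p was under 0.05 in all 6 fits that left out 1 library, with log2 fold changes of -0.54 (without gas 3) to -0.34 (without gas 1). Correction for gene length gave -0.70.

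NEXN encodes nexilin, an actin-binding protein best known from muscle (gene ID 100856678; CanFam3.1 chromosome 6, 68963953 to 69014874). Its counts were 6, 24 and 47 with gas and 39, 54 and 58 with dCAMP, or 0.130, 0.456 and 0.886 CPM against 0.842, 1.26 and 1.28 CPM. Gas 3 lay above dCAMP 1, so that the groups overlapped. The log2 fold change of 1.12 (standard error 0.56) was the largest of the 10 genes, with an unadjusted p of 0.0878 and an adjusted p of 0.272 in edgeR's test, and it was 0.70 without gas 1 and 1.74 without gas 3. Over the alternatives NEXN ranged from 0.26 with log2(FPKM + 1), where FERMT2 had 0.39, to 1.32 with a block for the replicate number. In DESeq2 on the genes counted in every library, NEXN met the 2-fold rule, with a log2 fold change of 1.19 and an unadjusted p of 0.0447. NEXN also met it with voom (background 6.87%), with log2(FPKM + 0.1) (2.54%) and without gas 3 (10.2%). The block for the replicate number gave the same call, without (2.96%) and with (3.23%) the length correction. None of the 8 transcripts listed for NEXN had a count in every library.

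The libraries of the gas group were not equally far from the dCAMP group. Taking each gene's CPM against its mean over the 3 dCAMP libraries, the median absolute log2 difference of the 10 genes was 0.453 in gas 1, 0.244 in gas 2 and 0.0972 in gas 3. It was 0.0381, 0.0709 and 0.0515 in dCAMP 1, 2 and 3. The share of all counts that fell on the 10 genes was 0.219%, 0.196% and 0.179% with gas, and 0.171%, 0.168% and 0.166% with dCAMP. The median difference and the share thus followed the order of the gas libraries on the first principal component and in the mitochondrial share, while FERMT2 and PTK2 were farther from the dCAMP mean in gas 3 (log2 differences of -0.71 and 0.030) than in gas 2 (-0.62 and 0.013).

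**Figure D3:**
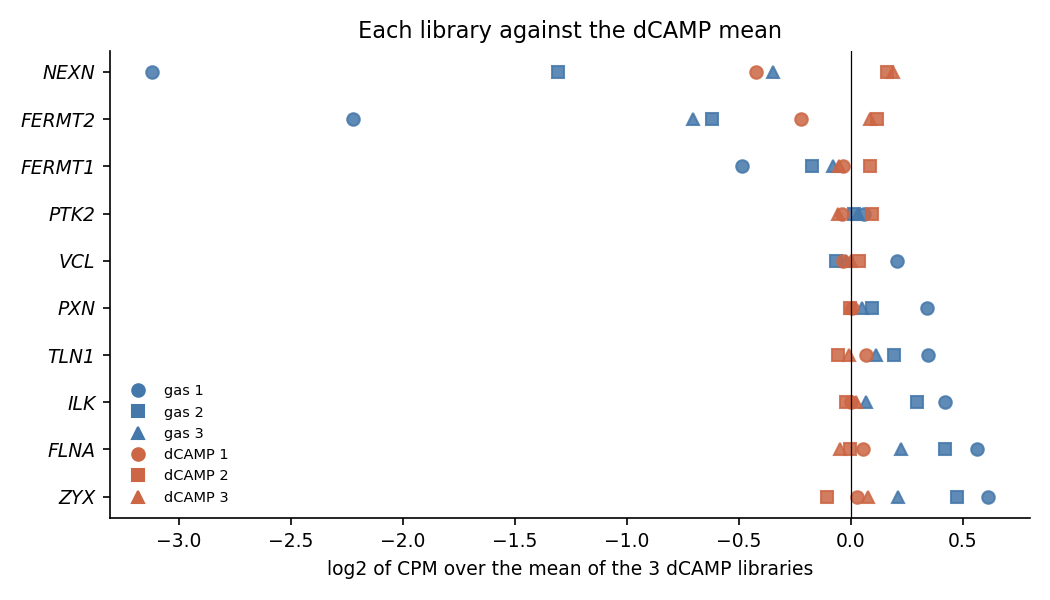
Log2 of the CPM of each gene in each library over its mean in the 3 dCAMP libraries (0 on the x axis), with gas libraries in blue and dCAMP libraries in orange. Gas 1 is the farthest from 0 for 9 of the 10 genes, reaching -3.12 for NEXN and 0.61 for ZYX.

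Leaving out gas 3 changed the calls. Without it, 5 of the 10 genes had an adjusted p under 0.05 in edgeR's test, but so did 33.1% of all genes (4953 of 14975). These genes were FLNA (adjusted p = 0.0203), ZYX (0.0214), ILK (0.0249) and TLN1 (0.0387), all lower, and NEXN (0.0450), higher. With any other library left out, none of the 10 genes was called.

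**Figure D4:**
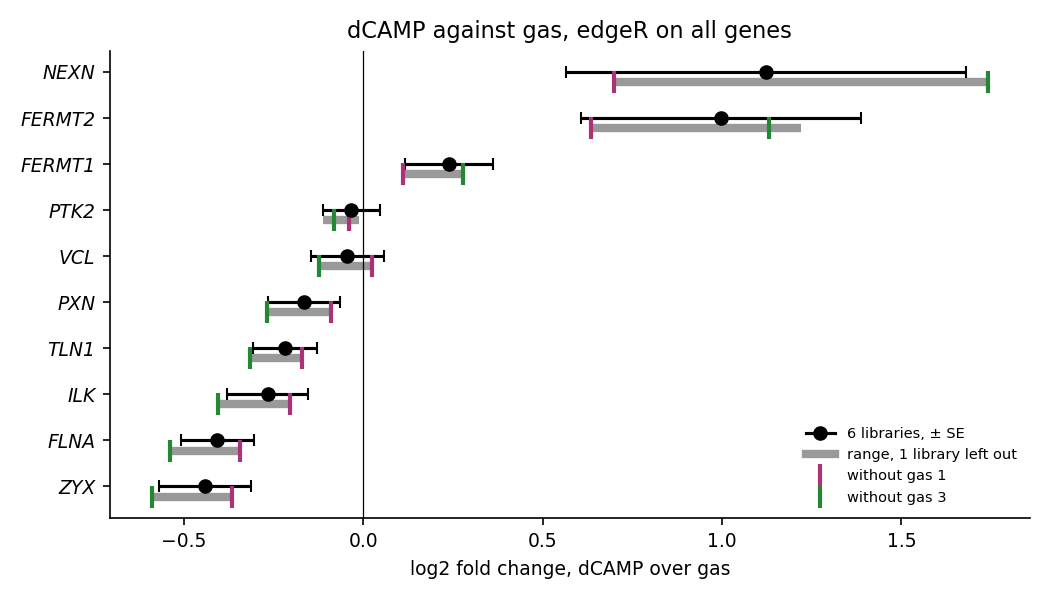
Log2 fold change of dCAMP over gas for the 10 genes from edgeR's fit of all 14708 genes, with standard errors (black), and the range over 6 fits that each left out 1 library (grey), with the fits without gas 1 (purple) and without gas 3 (green) marked. All ranges but that of VCL stay on 1 side of 0, and those of FERMT2 (0.63 to 1.22) and NEXN (0.70 to 1.74) are the widest.

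Of 98 further genes of the pathway in 6 lists, 97 were in the table (all but MYL12A) and 91 were tested. None of the 91 had an adjusted p under 0.05 in edgeR's test, and DESeq2 called 2 of 94 against 1.48% of all genes, DAB2 (adjusted p = 0.0477) and PFN1 (0.0375). Both calls were lost with DESeq2 on the genes counted in every library, which called 0 of 91 (background 1.05%, smallest adjusted p 0.0609). At an unadjusted p under 0.05, 27 of the 91 were called by edgeR, or 29.7% against 20.7% of all genes tested. With 1 library left out this number was 8 without dCAMP 3 (background 6.86%), 9 without gas 2 (8.25%), 12 without dCAMP 1 (8.23%), 13 without dCAMP 2 (9.61%), 25 without gas 1 (20.6%) and 57 without gas 3 (49.2%). Without gas 3, 44 of the 91 had an adjusted p under 0.05, in a fit that called 33.1% of all genes. Of the 18 pathway genes taken by the naming rule, 14 were called in that fit (all but ITGB1BP1, PARVA, RSU1 and FYN). Since these 18 were chosen for small p in the full fit of the same libraries, no conclusion is drawn from the 14. Correction for gene length gave 32 higher and 59 lower among the 91, against 43 and 48 without it. Of the 27, 10 were higher (background 6.81%) and 17 were lower (background 13.9%) in dCAMP-treated cells. Lower calls were thus the more frequent over all genes too in this fit. Over all genes this was not so with log2(FPKM + 1) (11.9% higher, 11.8% lower) or voom (34.5%, 30.4%). Nor was it so with a block for the replicate number (9.56%, 9.31%), or with that block and the length correction (10.6%, 10.1%). Only ITGB8 met the 2-fold rule (background 1.09%). No pathway gene met it with log2(FPKM + 1), after correction for gene length alone, or without gas 1, dCAMP 1, dCAMP 2 or dCAMP 3. After that correction together with a block for the replicate number, YES1, ITGB8 and RAP1B met it (background 3.23%). CALD1 alone met it without gas 2 (background 0.902%), while 5 genes did without gas 3 (10.2%) and 4 with voom (6.87%), ITGB8 among them in both. The CPM of the groups did not overlap for 21 of the 91 genes that were higher (background 19%) and 26 that were lower (background 20.9%).

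Of the 13 tested genes that act on integrin activation, 6 had higher and 7 had lower means, with a median log2 fold change of -0.04, which was 0.059 without gas 1, -0.20 without gas 3 and -0.26 after correction for gene length. DAB2, an adaptor that binds integrin tails, had a log2 fold change of 0.69 (unadjusted p = 0.00585), and its 4.64 to 6.65 CPM with gas did not overlap the 8.59 to 10.5 CPM with dCAMP. SHARPIN, an inhibitor of integrin activation, had a log2 fold change of -0.39 (unadjusted p = 0.0172), at 109, 98.6 and 82.2 CPM with gas and 71.2, 77.1 and 72.1 CPM with dCAMP. ITGB1BP1 (ICAP1), which competes with talin for the beta-1 tail, had one of -0.30 with an unadjusted p of 0.0542. Each of these genes, picked for small p, kept its groups apart in CPM. Of the 13 genes, 4 lay above gas without overlap (background 19%) and 3 below (background 20.9%). With 1 library left out, the unadjusted p was under 0.05 in 6 of 6 fits for DAB2 and in 3 of 6 for SHARPIN.

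Of the 6 tested partners of ILK, 2 were higher and 4 lower, with a median log2 fold change of -0.07, which was 0.030 without gas 1 and -0.16 without gas 3. Only LIMS1, which encodes the adaptor PINCH1, had an unadjusted p under 0.05 (16.7% of the list, against 20.7% of all genes tested). It stood at 38.4, 42.5 and 73.7 CPM with gas and at 74.5, 87.1 and 78.5 CPM with dCAMP, a log2 fold change of 0.64 with an unadjusted p of 0.0456. Gas 3 lay beside the dCAMP libraries and away from the other gas libraries. On the FPKM scale the LIMS1 groups overlapped, at 19.7, 15.5 and 19.7 with gas and 18.9, 23.8 and 21.1 with dCAMP, and log2(FPKM + 1) gave a difference of 0.21. The unadjusted p was under 0.05 in 1 of 6 fits with a library left out, the one without gas 3. PARVA, the parvin that held 99.7% of the family's FPKM with gas, and RSU1, which binds PINCH1, had log2 fold changes of -0.12 and -0.07 (unadjusted p of 0.307 and 0.385). Leaving out 1 library gave -0.24 to -0.038 for PARVA and -0.14 to -0.054 for RSU1.

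Among 22 tested genes of focal adhesion kinase and paxillin signaling, 13 were higher and 9 lower, with a median log2 fold change of 0.03. Correction for gene length gave 8 higher, 14 lower and a median of -0.17, and upper-quartile factors gave 9 higher, 13 lower and -0.055. The adaptor BCAR1 (p130Cas), a substrate of focal adhesion kinase and Src, stood at 140.5, 121 and 109 CPM with gas and at 94.8, 93.4 and 94.7 CPM with dCAMP, a log2 fold change of -0.39 (unadjusted p = 0.0117). GIT1, which binds paxillin, had one of -0.34 (unadjusted p = 0.0199), and the Src-family kinase FYN had one of 0.27 (unadjusted p = 0.0413). For all of these, picked for small p, the groups did not overlap. In the list, 6 of 22 genes lay above gas without overlap (background 19%) and 5 below (background 20.9%). CSK was the only other gene of the list with an unadjusted p under 0.05, with a log2 fold change of -0.32. The list thus had 1 higher and 3 lower calls (background 6.81% and 13.9%). They made up 18.2% of its tested genes, against 20.7% of all genes tested. With 1 library left out, the unadjusted p was under 0.05 in 6 of 6 fits for BCAR1, 2 of 6 for GIT1 and 1 of 6 for FYN and for CSK.

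Of the 25 actin linkers tested, 11 were higher and 14 lower (median log2 fold change -0.15), and 3 and 6 of these had an unadjusted p under 0.05 (background 6.81% and 13.9%). The median ranged from -0.25 without gas 3 to -0.082 without dCAMP 3, and the 9 calls numbered 16 and 2 in these fits (background 49.2% and 6.86%), and 3 without gas 2 (8.25%). VASP, which elongates actin filaments, TNS2, a tensin, and CSRP1, which binds zyxin, had log2 fold changes of -0.41, -0.38 and -0.41 (unadjusted p of 0.0122, 0.0131 and 0.0132). Their libraries were as low as 96.1, 15.9 and 178 CPM with dCAMP and reached 151, 22.4 and 281 CPM with gas, without overlap. These genes were picked for small p. In the list, 3 of 25 genes lay above gas without overlap (background 19%) and 8 below (background 20.9%). Fits with 1 library left out gave an unadjusted p under 0.05 in 6 of 6 for VASP, 3 of 6 for TNS2 and 5 of 6 for CSRP1.

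Of 18 tested actin and myosin genes, 7 were higher and 11 lower (median log2 fold change -0.19), and 1 and 7 had an unadjusted p under 0.05 (background 6.81% and 13.9%). The median was -0.40 without gas 3, and the 8 calls numbered 12 in that fit (background 49.2%), 3 without gas 2 (8.25%) and 2 without dCAMP 1, 2 or 3 (8.23%, 9.61% and 6.86%). PFN1, which encodes the actin monomer binder profilin-1, stood at 480.4, 449 and 390.0 CPM with gas and at 328, 332 and 312 CPM with dCAMP. Its log2 fold change was -0.44 (standard error 0.10), with an unadjusted p of 0.00339 and an adjusted p of 0.221. ACTG1, cytoplasmic gamma actin, and CFL1, the filament-severing cofilin-1, had log2 fold changes of -0.30 and -0.28 (unadjusted p of 0.00960 and 0.0236). All dCAMP libraries lay below gas for both. In the list, 9 of 18 genes lay below gas without overlap (background 20.9%) and 3 above (background 19%). In fits with 1 library left out, the unadjusted p was under 0.05 in 6 of 6 for PFN1 and for ACTG1, but in 2 of 6 for CFL1.

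Integrin beta subunits, to whose tails kindlins and talin bind, had the highest median of the 6 lists. Of 7 tested genes 4 were higher and 3 lower, the median log2 fold change was 0.64, and 3 had an unadjusted p under 0.05, all higher (background 6.81%). The median was 0.29 without gas 1, 0.83 without gas 3 and 0.24 with log2(FPKM + 1). The 3 calls numbered 6 without gas 3 (background 49.2%), 4 without gas 1 (20.6%), 2 without dCAMP 2 (9.61%) or dCAMP 3 (6.86%), and 1 without gas 2 (8.25%) or dCAMP 1 (8.23%). ITGB8 stood at 8.06, 14.6 and 30.8 CPM with gas and at 40.1, 40.8 and 40.1 CPM with dCAMP, a log2 fold change of 1.18 (standard error 0.45) with an unadjusted p of 0.0388. The dCAMP libraries were nearly equal while gas 3 was several times gas 1, and leaving out gas 1 gave 0.81 and leaving out gas 3 gave 1.78. Its unadjusted p was under 0.05 in 2 of 6 fits with a library left out. ITGB6, the epithelial subunit found in healing wounds, stood at 27.2, 33.7 and 51.2 CPM with gas and at 64.6, 67.3 and 67.9 CPM with dCAMP, a log2 fold change of 0.83 (unadjusted p = 0.0104). ITGB3 was scarce, at 2.03 to 2.92 CPM with gas and 3.32 to 4.99 CPM with dCAMP. Its log2 fold change was 0.70 (unadjusted p = 0.0191), and 0.24 with log2(FPKM + 1). When 1 library was left out, the unadjusted p was under 0.05 in 6 of 6 fits for ITGB6 and 4 of 6 for ITGB3.

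**Figure D5:**
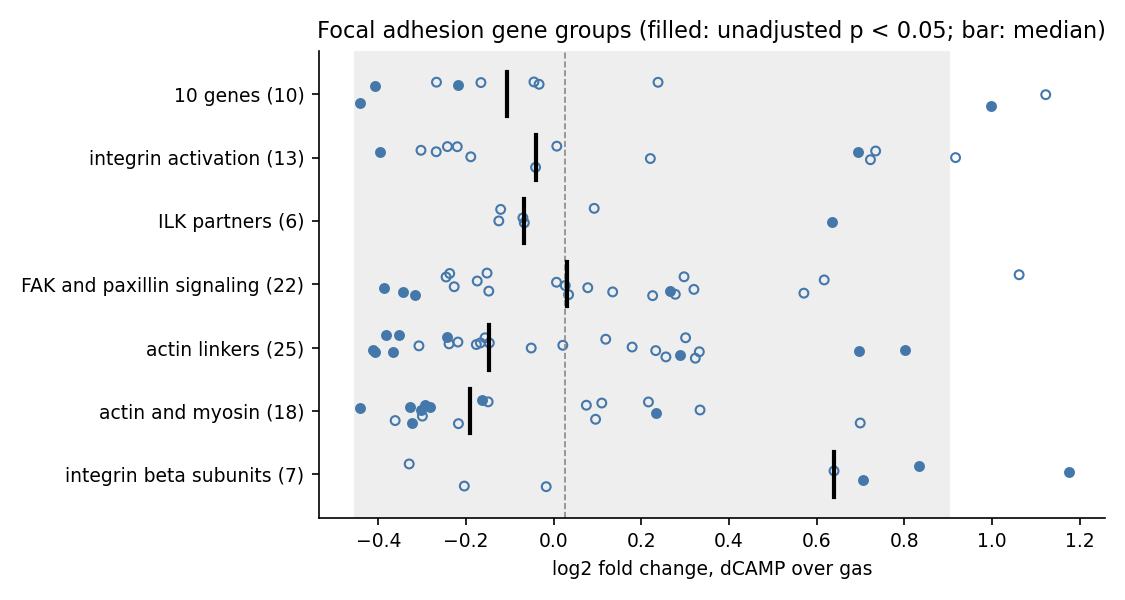
Log2 fold change of dCAMP over gas for the 10 genes and for each tested gene of the 6 pathway lists (number tested in brackets), with filled points for an unadjusted p under 0.05, black bars at the medians, a dashed line at the median of all 14708 genes (0.03) and grey from their 5th to 95th percentile (-0.45 to 0.90). The medians run from -0.19 for actin and myosin genes to 0.64 for integrin beta subunits, and points beyond the grey area are few.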

How the data were processed

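RNA-Seq of CPEK cells was analysed in 3 gas and 3 dCAMP libraries. Per the labels and the study's methods, the authors cleaned the reads with FastQC 0.11.7 and Trimmomatic 0.38, mapped them to CanFam3.1 with HISAT2 2.1.0 and summarized known transcripts with StringTie 2.1.3b. The annotation release and the counting of overlapping genes are not given in the sources used here. The deposited counts are whole numbers without normalization, and those of each of the 35993 genes equal the sum over its transcripts. The deposited FPKM values had been scaled by transcript length and by the number of mapped reads. The 12 columns of TPM values (6 in the gene table and 6 in the transcript table) were not used.

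Counts were fitted with edgeR 4.0.16 in R 4.3.3 (TMM normalization, filterByExpr, quasi-likelihood test, prior count of 2, Benjamini-Hochberg adjustment over 14708 genes). Calls used an adjusted p under 0.05, at least a 2-fold difference together with p under 0.05 before adjustment (the rule of the study's methods), or an unadjusted p under 0.05 alone. Kindlin ratios were compared by exact permutation tests in scipy 1.17.1. Totals of 43084921 to 54082634 counts per library set the precision, and a count of 0 allows up to 3 counts, for counting error only. The fitting steps were tested on simulated data in which no library stood apart. That test therefore does not cover the spread of the gas libraries.

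The 10 genes, the 6 pathway lists and the 6 marker lists were chosen with earlier results of these data known. Named were all 10 genes, in each pathway list the 3 tested genes with the smallest p and any passing the 2-fold rule, the 3 genes most like each kindlin (mean of at least 1 CPM), all keratinocyte markers and the most abundant gene of each other marker list. The other genes named were chosen after their values were seen, as were the 8 families of close paralogs, which received no test. Alternatives were DESeq2 1.42.0 on all genes with a count or on genes counted in every library, factors from the RLE or the upper-quartile method, a minimum of 10 counts per library or no minimum, a block for the replicate number, limma 3.58.1 (voom with sample quality weights, or log2 of FPKM plus 1 or 0.1), a correction for gene length (lowess, span 0.3) with and without the block, and leaving out each library.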

Additional observations from a re-analysis of the deposited data

How the results depend on the processing

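Under 12 alternatives and 6 fits without 1 library, only VCL of the 10 genes turned its direction, and NEXN was not tested at a minimum of 10 counts. The log2 fold change of VCL was 0.056 with voom, 0.025 without gas 1 and -0.13 without gas 2, the last ones being the ends of its range with 1 library left out. The number of the 10 genes with an adjusted p under 0.05 was 0 except with voom (7, in a fit that called 60.8% of all genes) and without gas 3. It ranged from 0 to 5 when 1 library was left out. Over the pathway lists this number was 2 with DESeq2 and 66 with voom, and ranged from 0 to 44 with 1 library left out, the highest without gas 3. In the other alternatives it was 0. The number of the 10 genes that passed the 2-fold rule was 1 with DESeq2 (1.82% of all genes), voom (6.87%) or log2(FPKM + 0.1) (2.54%), 2 with DESeq2 on genes counted in every library (2.14%), with the replicate block (2.96%) and with the length correction and the block (3.23%), and 0 to 2 with 1 library left out (2 without gas 3, where 10.2% of all genes passed). The number with an unadjusted p under 0.05 ranged from 3 to 8 over the alternatives (8 with voom, which called 64.9% of all genes) and from 1 to 8 with 1 library left out (8 without gas 3, with 49.2% of all genes). The cause of these differences was not tested. Correction for gene length changed the log2 fold change of FLNA to -0.70, TLN1 to -0.51, PXN to -0.30, PTK2 to -0.20, VCL to -0.19 and FERMT1 to 0.071, while log2(FPKM + 1) gave 0.39 for FERMT2 and 0.26 for NEXN, and voom gave 0.62 for FERMT2. No scaling moved the median of all genes by over 0.1, and the shift was -0.09 with upper-quartile factors.

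The kindlin log2 ratio over the 6 libraries ranged from 5.81 to 6.20 with 1 left out (exact p = 0.0625, the smallest that 5 libraries allow), and was 5.80 and 4.57 with 0.1 and 1 FPKM added to both genes. The difference of this ratio between dCAMP and gas ranged from -1.19 to -0.53 with 1 library left out, and was -0.73 and -0.15 with 0.1 and 1 FPKM added. The labels do not say whether libraries of the same replicate number were handled together. Their deviations from the group means correlated at 0.13, 0.02 and 0.05. With 3 libraries per group, these values cannot show whether the libraries were paired. With the replicate number as a block, 0 of the 10 genes and 0 pathway genes had an adjusted p under 0.05, and the difference of the kindlin ratio over the 3 pairs was -0.94 (exact p = 0.25, the smallest possible).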
